A study of Mus musculus with 12 samples.

Results

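The Notch receptors Notch1, Notch2 and Notch3, their ligands Jag1, Jag2 and Dll4, and the Hes and Hey target genes Hes1, Hey1, Hey2 and Heyl were followed in mouse cardiac fibroblasts with and without deletion of Smad7. They were chosen by name, and each of the 10 had a row among the 35275 genes of the count table. All 10 passed the filter on low counts, as did 15150 genes in all. Fibroblasts came from the hearts of 12-week-old C57BL/6 mice with a floxed Smad7 gene and were used at passage 2. Every culture therefore came from floxed cells and received an adenovirus (48 hours, 100 MOI). The titles of the control samples call them wild type. Smad7-KO cells received a Cre-expressing virus, and control cells a virus that the sample labels describe as expressing GFP and the study's methods as empty. In each arm, 3 libraries were unstimulated and 3 came from cells given TGF-β1 at 10 ng/ml. The duration of stimulation is 2 hours in one field of the labels and 4 hours in another. The promoter that drove Cre is not given in the sources used here, and control and Smad7-KO cultures differed in the cargo of the virus as well as in Smad7. The 3 libraries per condition are described as independent samples without saying whether they came from separate animals or cultures, so p values measure the spread between these libraries, which may be technical.

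Notch receptors are single-pass membrane proteins that are activated by ligands on neighboring cells. Jagged ligands (Jag1, Jag2) and Delta-like ligands (such as Dll4) pull on the receptor, ADAM proteases and γ-secretase then cut it, and the freed intracellular domain enters the nucleus, where it joins RBPJ to activate transcription. Hes1, Hey1, Hey2 and Heyl encode basic helix-loop-helix repressors and are the best known direct targets. In the heart the pathway is known for endothelial and endocardial development and for valve formation, and Notch3 and Heyl for vascular smooth muscle cells and pericytes. Smad7 is an inhibitor of TGF-β signaling that is itself induced by TGF-β.

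The measure is the number of reads counted on each gene, with 19056916 to 25371321 counted reads per library. Levels are TMM CPM, which is the count as a share of the library total after scaling by edgeR's TMM factor, and levels of different genes are compared only per kb of gene length. The threshold for differential expression was a Benjamini-Hochberg adjusted p of at most 0.05 over all tested genes, from an edgeR quasi-likelihood fit to all 12 libraries. Log2 fold changes and their standard errors (SE) are from the same fit. Without stimulation Smad7 averaged 74.3 ± 2.94 CPM (SD, n = 3) in control and 29.3 ± 1.48 CPM (SD, n = 3) in Smad7-KO libraries. The corresponding levels were 146 ± 4.22 CPM (SD, n = 3) and 76.7 ± 5.89 CPM (SD, n = 3) with TGF-β1, so its level was lower in the libraries labelled Smad7-KO. Reads on the gene were reduced there but not absent, and its level in stimulated Smad7-KO libraries was close to that in unstimulated control. Fibroblast markers summed to 7420 to 11500 CPM over the libraries, and all 10 were detected. Macrophage markers, of which 9 of the 10 listed were in the table, summed to 6710 to 10500 CPM, so macrophage transcripts were abundant in cultures labelled as fibroblasts. Unstimulated control library 2 stood apart by gene length. In that library the tested genes in the longest class (3896 bases or more) had a median deviation from their 12-library mean of -0.50 (log2), against -0.19 to 0.18 in the others. Notch1 (9488 bases), Notch2 (10506), Notch3 (8044), Jag1 (5612), Heyl (4537) and Jag2 (4054) belong to that group of long genes. Genes of the shortest class (2250 bases or less), to which Hey1 (2203) and Hes1 (1468) belong, deviated upward in the same library. Their median deviation was 0.585 there, against -0.19 to 0.22 in the others. Dll4 (3747) and Hey2 (2550) are in the middle class, with a median deviation of -0.02 in that library.

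Jag1 dominated the ligands, and Notch2 was the most abundant receptor in every condition. In unstimulated control cells the order per kb was Jag1 (mean 25.1 CPM per kb), Hes1 (22.9), Notch2 (10.4), Notch3 (3.70), Notch1 (3.07), Hey2 (1.46), Hey1 (0.786), Dll4 (0.169), Heyl (0.143) and Jag2 (0.136). Neighbors in this order whose libraries overlapped were Jag1 and Hes1, Notch3 with Notch1, Notch1 with Hey2, Dll4 with Heyl, and Heyl with Jag2. In unstimulated Smad7-KO cells Jag1 (20.5 CPM per kb) and Notch2 (20.2) overlapped at the top, and Hes1 (5.95) had moved below Notch1 (6.45), with which it overlapped. With TGF-β1 the control order began with Hes1 (21.4 CPM per kb) and Jag1 (18.9), which overlapped, and the Smad7-KO order with Jag1 (15.5), Notch2 (14.1), Notch1 (9.66) and Hes1 (8.16), of which the first 2 overlapped. Jag2 was at 0.379 CPM per kb or less in every library and Dll4 at 0.320 or less.

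**Figure D1:**
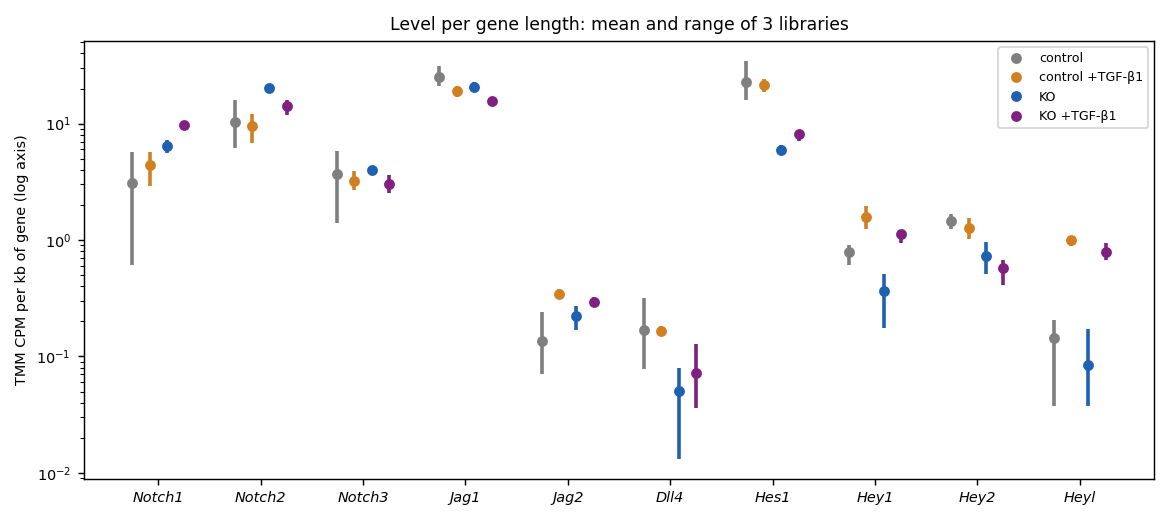
Levels of the 10 members per gene length in the 4 conditions, as TMM CPM per kb on a log axis. Points are means of 3 libraries and vertical lines run from the lowest to the highest library. Hes1 was at a mean of 22.9 and 21.4 in control cells and 5.95 and 8.16 in Smad7-KO cells.

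Jag1 (ENSMUSG00000027276, GRCm38 chromosome 2, 137081456 to 137116644, minus strand) was at 129, 119 and 175 CPM in unstimulated control libraries 1, 2 and 3, and at 128, 107 and 110 CPM in unstimulated Smad7-KO libraries 1, 2 and 3. With TGF-β1 it was at 119, 94.8 and 105 CPM in control and 89.3, 90.1 and 81.2 CPM in Smad7-KO libraries. The stimulated Smad7-KO libraries lay below all 9 others, whereas the unstimulated groups overlapped. Jag2 (ENSMUSG00000002799, chromosome 12, 112908590 to 112929495, minus strand) was rare, at 0.403, 0.285 and 0.970 CPM in unstimulated control and 1.09, 0.686 and 0.910 CPM in unstimulated Smad7-KO libraries. With TGF-β1 it reached 1.54, 1.30 and 1.31 CPM in control and 1.16, 1.09 and 1.32 CPM in Smad7-KO libraries. Every stimulated library was above every unstimulated control library. Dll4 (ENSMUSG00000027314, chromosome 2, 119325784 to 119335962, plus strand), a ligand best known from endothelial tip cells, was the least counted member, with 7 to 21 reads in unstimulated control, 14 to 15 in TGF-β1 control, 1 to 7 in unstimulated Smad7-KO and 3 to 12 in TGF-β1 Smad7-KO libraries. In CPM it was at 0.403, 1.20 and 0.295 in unstimulated control and at 0.0495, 0.300 and 0.217 in unstimulated Smad7-KO libraries. At this depth the spread of Dll4 is large relative to its level.

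Notch1 (ENSMUSG00000026923, chromosome 2, 26457903 to 26516663, minus strand) had the widest spread of the receptors. It was at 27.6, 5.77 and 53.9 CPM in unstimulated control libraries 1, 2 and 3, but at 68.8, 52.9 and 61.8 CPM in unstimulated Smad7-KO libraries. With TGF-β1 it was at 54.5, 27.5 and 43.2 CPM in control and 91.0, 97.1 and 86.9 CPM in Smad7-KO libraries. The lowest value of all came from unstimulated control library 2, and the 3 stimulated Smad7-KO libraries held the 3 highest. Notch2 (ENSMUSG00000027878, chromosome 3, 98013538 to 98150367, plus strand) was at 98.2, 64.3 and 167 CPM in unstimulated control and 216, 215 and 207 CPM in unstimulated Smad7-KO libraries, which did not overlap. With TGF-β1 it was at 127, 71.4 and 101 CPM in control and 153, 168 and 124 CPM in Smad7-KO libraries, where the groups overlapped. Notch3 (ENSMUSG00000038146, chromosome 17, 32120820 to 32166880, minus strand) was at 31.4, 11.2 and 46.7 CPM in unstimulated control and 33.0, 29.6 and 34.4 CPM in unstimulated Smad7-KO libraries. Its stimulated libraries held 31.4, 21.6 and 23.9 CPM in control and 20.2, 28.9 and 24.0 CPM in Smad7-KO cells, and both pairs of groups overlapped. In all 3 receptors unstimulated control libraries kept 1 order, with library 2 lowest and library 3 highest, which is also the order of the long genes in these libraries (median deviations of -0.50, -0.19 and 0.13 in libraries 2, 1 and 3).

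**Figure D2:**
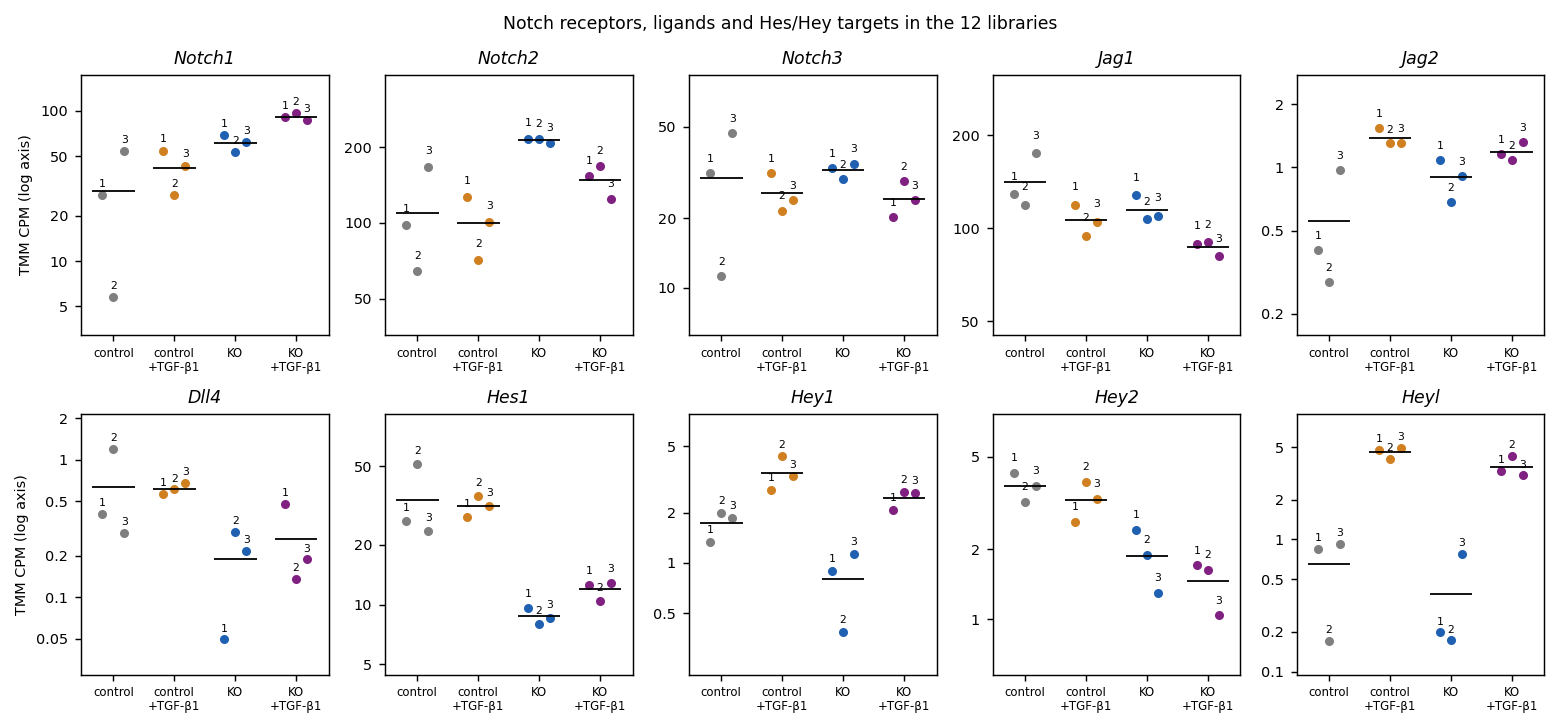
TMM CPM of each member in the 12 libraries, with 1 panel per gene and a log axis. Points are libraries numbered 1 to 3 within each condition and horizontal lines are means. Hes1 was between 7.98 and 12.9 CPM in Smad7-KO and between 23.4 and 51.0 CPM in control libraries, and unstimulated control library 2 was the lowest library of Notch1, Notch2 and Notch3.

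Among the targets, Hes1 (ENSMUSG00000022528, chromosome 16, 30064384 to 30067796, plus strand) separated the genotypes completely. It was at 26.5, 51.0 and 23.4 CPM in unstimulated control and 9.66, 7.98 and 8.58 CPM in unstimulated Smad7-KO libraries. With TGF-β1 it was at 27.6, 35.2 and 31.3 CPM in control and 12.6, 10.4 and 12.9 CPM in Smad7-KO libraries. No Smad7-KO library reached any control library, whether stimulated or not. Its highest value, 51.0 CPM, came from unstimulated control library 2, in which short genes were high. Hey1 (ENSMUSG00000040289, chromosome 3, 8663362 to 8667039, minus strand) was at 1.34, 2.00 and 1.85 CPM in unstimulated control and 0.891, 0.386 and 1.13 CPM in unstimulated Smad7-KO libraries. With TGF-β1 it was at 2.75, 4.35 and 3.30 CPM in control and 2.07, 2.67 and 2.64 CPM in Smad7-KO libraries. Thus Hey1 was lower in Smad7-KO than in control libraries and higher with TGF-β1 than without it in all libraries compared. Hey2 (ENSMUSG00000019789, chromosome 10, 30832359 to 30842801, minus strand) was at 4.26, 3.20 and 3.75 CPM in unstimulated control and 2.43, 1.89 and 1.30 CPM in unstimulated Smad7-KO libraries. Its stimulated libraries were at 2.63, 3.90 and 3.30 CPM in control and 1.71, 1.63 and 1.04 CPM in Smad7-KO cells, so the genotypes did not overlap and the stimulated and unstimulated libraries of each genotype did. Heyl (ENSMUSG00000032744, chromosome 4, 123233556 to 123249875, plus strand) followed the stimulation instead. It was at 0.851, 0.171 and 0.927 CPM in unstimulated control and 0.198, 0.172 and 0.780 CPM in unstimulated Smad7-KO libraries, but with TGF-β1 at 4.77, 4.06 and 4.95 CPM in control and 3.31, 4.30 and 3.06 CPM in Smad7-KO libraries. Every stimulated library was above every unstimulated library.

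The promoters of Hey2, which was lower in Smad7-KO cells, and Notch2, which was higher, are shown because these members changed in opposite directions and both have an entry among the RefSeq promoters of GRCm38.p6, as do 7 of the 10 members. Hes1, Hey1 and Heyl had no entry. Each line gives 260 bases on the gene's strand, from 250 bases before the transcription start to the 10 bases at and after it. Capitals mark TGGGAA, the core of the DNA sequence bound by RBPJ, or its reverse complement TTCCCA.
Hey2, chr10:30842774-30843033, minus strand: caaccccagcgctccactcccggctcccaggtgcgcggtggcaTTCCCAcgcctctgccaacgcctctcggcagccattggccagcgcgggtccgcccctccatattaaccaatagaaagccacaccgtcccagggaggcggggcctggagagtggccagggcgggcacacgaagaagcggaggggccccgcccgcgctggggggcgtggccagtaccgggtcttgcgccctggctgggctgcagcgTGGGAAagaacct
Notch2, chr3:98013288-98013547, plus strand: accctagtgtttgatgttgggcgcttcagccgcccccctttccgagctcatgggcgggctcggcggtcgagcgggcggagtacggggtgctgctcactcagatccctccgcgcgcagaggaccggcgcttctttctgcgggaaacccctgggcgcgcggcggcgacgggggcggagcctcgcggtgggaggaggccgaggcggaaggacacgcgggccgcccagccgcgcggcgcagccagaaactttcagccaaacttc
In the full promoter entries of 300 bases, Hey2 held TGGGAA on both strands, beginning 207 and 3 bases before the start, and the other 6 entries held none on either strand. TGGGAA was present on at least 1 strand in 25.6% of all 32851 promoters. CAGAC, a short element bound by Smad proteins, was in the entries of Dll4, Jag1 and Notch3 and in 49.6% of all promoters, searched on both strands. Neither Hey2 nor Notch2 held it. These are matches of letters and not measured binding sites.

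In unstimulated cells 3 of the 4 Hes and Hey targets were lower and 1 of the 3 receptors was higher in Smad7-KO than in control cells. Hes1 fell most, to 8.74 ± 0.850 CPM (SD, n = 3) from 33.6 ± 15.1 CPM (SD, n = 3), with a log2 fold change of -1.94 (SE 0.258, adjusted p = 6.91e-04 in edgeR). Hey1 fell by 1.11 (SE 0.352, adjusted p = 0.0414 in edgeR) and Hey2 by 1.00 (SE 0.271, adjusted p = 0.0237 in edgeR) on the log2 scale. Notch2 rose from 110 ± 52.1 CPM (SD, n = 3) to 213 ± 5.06 CPM (SD, n = 3), a log2 fold change of 0.95 (SE 0.295, adjusted p = 0.0382 in edgeR). The other 6 did not pass the test. Their log2 fold changes were 1.06 (adjusted p = 0.143 in edgeR) for Notch1, 0.12 (0.824) for Notch3, -0.29 (0.151) for Jag1, 0.65 (0.226) for Jag2, -1.63 (0.0938) for Dll4 and -0.79 (0.319) for Heyl. Thus 3 of 10 members were lower and 1 higher, where 13.7% of all tested genes were lower and 12.1% higher. The median log2 fold change was -0.54 over the members and -0.02 over all tested genes. The libraries of both groups did not overlap for 4 members, the same 4 that passed the test, as for 41.3% of all tested genes.

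Of the calls in unstimulated cells, that of Hes1 was kept in all 22 alternatives, with log2 fold changes from -2.14 to -1.34. The call of Hey2 was lost without unstimulated control library 1, unstimulated Smad7-KO library 2 or unstimulated Smad7-KO library 3 (adjusted p of 0.0781, 0.0745 and 0.0901 in edgeR) and in a fit to the 6 libraries alone (0.0899). Hey1 kept its call in 8 of the 22 alternatives and lost it without unstimulated control library 1 or 2, TGF-β1 control library 3, unstimulated Smad7-KO library 1 or 2, or any of the TGF-β1 Smad7-KO libraries (adjusted p of 0.0561 to 0.116 in edgeR). Notch2 kept its call in 11 of the 22 alternatives and lost it when any unstimulated library other than control library 3 was left out, and in the absence of control library 3, Smad7-KO library 1 or Smad7-KO library 2 of the stimulated cells (0.0527 to 0.0984). Leaving out unstimulated control library 3 brought Notch1 (log2 fold change 1.86, adjusted p = 0.00615 in edgeR), Jag2 (1.34, 0.0128) and Dll4 (-1.98, 0.0321) past the threshold. Without that library 7979 of 15499 tested genes passed, against 3907 of 15150 in the fit to all 12 libraries. In the fit to the 6 unstimulated libraries alone 660 of 14524 passed. When each library's trend on gene length was removed, Notch2 was higher by a smaller log2 fold change of 0.50 (SE 0.0906, adjusted p = 0.00145 in edgeR), Jag1 was lower (-0.58, SE 0.0802, adjusted p = 2.33e-04), Notch3 turned from 0.12 to -0.20 (adjusted p = 0.493), and Hes1 was at -1.58 (adjusted p = 4e-05). In that fit 1 member was higher and 4 lower, against 14.0% and 15.0% of all tested genes.

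**Figure D3:**
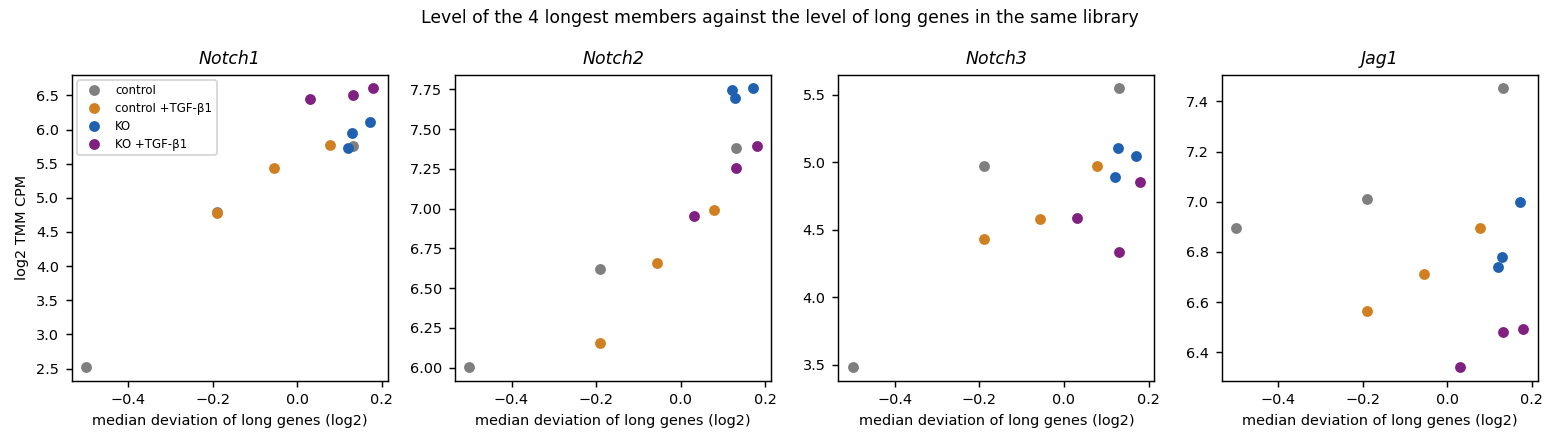
Log2 TMM CPM of Notch1, Notch2, Notch3 and Jag1 in each of the 12 libraries, against the median log2 deviation of the long tested genes (3896 bases or more) from their 12-library mean in the same library. Colors are conditions. Unstimulated control library 2, at -0.50 on the horizontal axis, is the lowest library of the 3 receptors but not of Jag1.

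In the presence of TGF-β1, Hes1 and Hey2 were again lower in Smad7-KO than in control cells, and no member was higher. Hes1 was at 12.0 ± 1.33 CPM (SD, n = 3) against 31.4 ± 3.78 CPM (SD, n = 3) in control, a log2 fold change of -1.39 (SE 0.252, adjusted p = 0.00481 in edgeR). Hey2 was at 1.46 ± 0.368 CPM (SD, n = 3) against 3.28 ± 0.638 CPM (SD, n = 3), a log2 fold change of -1.16 (SE 0.276, adjusted p = 0.0186 in edgeR). The remaining members did not pass, with log2 fold changes of 1.14 (adjusted p = 0.181 in edgeR) for Notch1, 0.57 (0.223) for Notch2, -0.07 (0.911) for Notch3, -0.29 (0.222) for Jag1, -0.22 (0.703) for Jag2, -1.16 (0.258) for Dll4, -0.50 (0.302) for Hey1 and -0.37 (0.573) for Heyl. Of the 10 members 2 were lower, where 7.23% of all tested genes were, and 0 were higher, where 5.72% of all tested genes were. No member was higher at an unadjusted p under 0.05 in edgeR, and none was called higher by DESeq2. The groups did not overlap for 6 members, with Notch1 higher and Jag1, Dll4, Hes1, Hey1 and Hey2 lower in Smad7-KO libraries, as for 44.9% of all tested genes. The median log2 fold change was -0.33 over the members and -0.02 over all tested genes.

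Hes1 remained past the threshold in all 22 alternatives with TGF-β1 as well (-1.47 to -1.18). The call of Hey2 was lost without TGF-β1 control library 2 or 3 or TGF-β1 Smad7-KO library 2 or 3 (adjusted p of 0.0922, 0.0550, 0.0531 and 0.0704 in edgeR). Notch1 passed without unstimulated control library 2 (log2 fold change 1.15, adjusted p = 0.00569 in edgeR) and in a fit to the 6 stimulated libraries alone (1.14, 0.00304). In the latter fit Notch2 passed as well (0.58, adjusted p = 0.0411 in edgeR). Over all tested genes 4465 of 15510 and 4453 of 14481 passed in these fits, against 1962 of 15150 in the fit to all 12 libraries. With the length trend removed, Notch2 (0.29, adjusted p = 0.0336 in edgeR) and Jag1 (-0.41, adjusted p = 0.00274) also passed, so that 1 member was higher and 3 lower, against 12.9% and 10.3% of all tested genes.

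**Figure D4:**
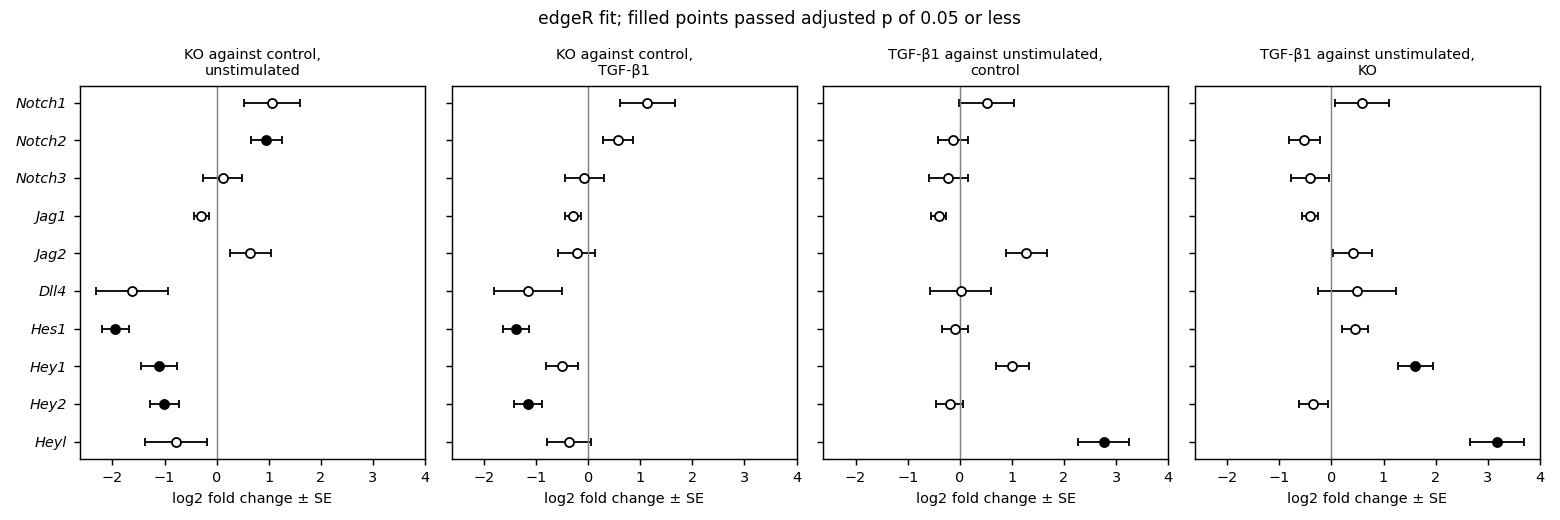
Log2 fold changes of the 10 members with their standard errors in the 4 pairwise comparisons, from the edgeR fit to all 12 libraries. Filled points are differentially expressed genes. Hes1 and Hey2 are filled on the negative side in both Smad7-KO comparisons, and Heyl on the positive side in both TGF-β1 comparisons.

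TGF-β1 raised Heyl in cells of both genotypes and Hey1 in Smad7-KO cells. In control cells Heyl rose from 0.650 ± 0.416 CPM (SD, n = 3) to 4.59 ± 0.469 CPM (SD, n = 3), a log2 fold change of 2.76 (SE 0.484, adjusted p = 0.00356 in edgeR). It was counted 3 to 22 times in unstimulated control libraries and 100 to 118 times in stimulated ones. Hey1 was at a log2 fold change of 1.00 (SE 0.316, adjusted p = 0.0794 in edgeR) and Jag2 at 1.28 (SE 0.386, adjusted p = 0.0683), and neither passed, although their libraries did not overlap. The others were at 0.51 (adjusted p = 0.631 in edgeR) for Notch1, -0.14 (0.841) for Notch2, -0.22 (0.786) for Notch3, -0.41 (0.136) for Jag1, 0.02 (0.993) for Dll4, -0.10 (0.864) for Hes1 and -0.19 (0.727) for Hey2. Thus 1 of 10 members was higher, where 5.04% of all tested genes were, and 0 were lower, where 3.33% were. In edgeR 1 member was lower at an unadjusted p under 0.05, and DESeq2 called 3 higher and 0 lower. The groups did not overlap for Jag2, Hey1 and Heyl, all 3 higher, as for 19.8% of all tested genes. The median log2 fold change was -0.04 over the members and -0.03 over all tested genes.

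Heyl was past the threshold in all 22 alternatives in control cells (2.36 to 3.08). Hey1 passed without unstimulated Smad7-KO library 2 (1.01, adjusted p = 0.0355 in edgeR), Jag2 without unstimulated control library 3 (1.97, 0.00409), and Jag1 without unstimulated control library 2 (-0.52, 0.0337). Over all tested genes 1073 of 15508, 3449 of 15499 and 1690 of 15510 passed in these fits, against 1268 of 15150 with all 12 libraries. With the length trend removed, Jag2 (1.22, adjusted p = 0.0373 in edgeR) and Hey1 (1.01, 0.0407) joined Heyl among the higher members and Jag1 (-0.55, 3.71e-04) was lower, against 7.16% of all tested genes higher and 7.39% lower.

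In Smad7-KO cells TGF-β1 raised Heyl from 0.383 ± 0.344 CPM (SD, n = 3) to 3.56 ± 0.652 CPM (SD, n = 3), a log2 fold change of 3.18 (SE 0.522, adjusted p = 0.00194 in edgeR). Hey1 rose from 0.801 ± 0.379 CPM (SD, n = 3) to 2.46 ± 0.336 CPM (SD, n = 3), a log2 fold change of 1.61 (SE 0.343, adjusted p = 0.00997 in edgeR). Both were past the threshold in all 22 alternatives, with ranges of 2.81 to 4.23 for Heyl and 1.27 to 1.96 for Hey1. No other member passed. Log2 fold changes were 0.58 (adjusted p = 0.670 in edgeR) for Notch1, -0.52 (0.388) for Notch2, -0.41 (0.675) for Notch3, -0.41 (0.129) for Jag1, 0.41 (0.677) for Jag2, 0.49 (0.855) for Dll4, 0.45 (0.385) for Hes1 and -0.35 (0.626) for Hey2. Of the 10 members 2 were higher and 0 lower, against 5.33% and 4.90% of all tested genes. In edgeR 1 member was lower at an unadjusted p under 0.05, and DESeq2 called 0 lower. Stimulated and unstimulated libraries did not overlap for 7 members, with Notch1, Hes1, Hey1 and Heyl higher and Notch2, Notch3 and Jag1 lower, as for 38.9% of all tested genes. The median log2 fold change was 0.43 over the members and -0.01 over all tested genes. Hes1 passed without unstimulated control library 2 (0.47, adjusted p = 0.0265 in edgeR) and Jag1 without unstimulated control library 3 (-0.41, 0.0256). With the length trend removed, Notch2 (-0.49, adjusted p = 0.00201 in edgeR) and Jag1 (-0.38, 0.00515) were lower beside the 2 higher members, against 7.74% of all tested genes lower and 8.55% higher.

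The interaction, which is the Smad7-KO effect with TGF-β1 minus that without it, was past the threshold for 0 of the 10 members in edgeR and in DESeq2, and for 0.0198% of all tested genes in edgeR. At an unadjusted p under 0.05 in edgeR, 0 of the members passed. For Hes1, whose Smad7-KO effects were -1.94 and -1.39, the interaction was 0.55 (SE 0.354, adjusted p = 0.980 in edgeR). It was 0.61 (SE 0.465, adjusted p = 0.980 in edgeR) for Hey1, which passed in unstimulated cells alone, -0.38 (SE 0.414, adjusted p = 0.980 in edgeR) for Notch2 and 0.42 (SE 0.717, adjusted p = 0.980 in edgeR) for Heyl. With these errors the size of the Smad7-KO effects in unstimulated and stimulated cells was not shown to differ for any member. The 4 pairwise comparisons share libraries with each other, so their values are not independent of one another.

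Endothelial markers were much lower in Smad7-KO libraries, in the same comparisons in which Hes1 and Hey2 were. The 18 listed markers summed to 317 to 363 CPM in unstimulated control and 325 to 371 CPM in TGF-β1 control libraries, but to 55.6 to 66.9 CPM and 56.4 to 59.2 CPM in the corresponding Smad7-KO libraries. Of the 16 that were tested, 13 were lower and 1 was higher in each Smad7-KO comparison. Of all tested genes 13.7% were lower and 12.1% higher in unstimulated, and 7.23% and 5.72% in stimulated Smad7-KO cells. The higher gene, named after its values were seen, was Vwf, the von Willebrand factor. Without stimulation Cdh5, the adhesion molecule of endothelial junctions, averaged 34.2 ± 10.0 CPM (SD, n = 3) in control and 3.06 ± 0.462 CPM (SD, n = 3) in Smad7-KO libraries. Pecam1, another junction protein, was at 50.9 ± 2.96 CPM (SD, n = 3) and 2.53 ± 0.436 CPM (SD, n = 3) in the same groups. Both remained above 0 in every library. Cldn5, another junction gene, was at 0 reads in all stimulated Smad7-KO libraries, and no other endothelial marker was at 0 in all libraries of a condition. It was rarely counted elsewhere as well, with 0 to 4 reads in unstimulated control, 0 to 5 in TGF-β1 control and 0 to 2 in unstimulated Smad7-KO libraries. TGF-β1 raised 1 and lowered 1 of the 16 in each genotype. It raised 5.04% and lowered 3.33% of all tested genes in control cells, and 5.33% and 4.90% in Smad7-KO cells. Dll4, Hey1, Hey2 and Hes1 are also known from endothelial cells, and the part of endothelial cells in their lower levels was not tested. In bulk RNA, fewer cells of a type and less RNA per cell cannot be told apart.

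Markers of smooth muscle cells and pericytes, in which Notch3 and Heyl are known, moved less in sum than the endothelial markers. The 12 listed markers summed to 1170 to 1920 CPM in unstimulated control and 912 to 1030 CPM in unstimulated Smad7-KO libraries, and to 1470 to 1930 CPM and 1250 to 1330 CPM with TGF-β1. In unstimulated control cells Tagln (mean 701 CPM), Acta2 (613) and Pdgfrb (145), named after their values were seen, made up most of the sum. Acta2 encodes α-SMA, by which the study identifies myofibroblasts. Of the 10 tested, 4 were lower in unstimulated and 1 in stimulated Smad7-KO cells, where 13.7% and 7.23% of all tested genes were lower. The median log2 fold change over the 10 was -0.645 and -0.42 in these comparisons. TGF-β1 raised 2 in each genotype, where 5.04% of all tested genes were higher in control and 5.33% in Smad7-KO cells. Without stimulation Myh11, the smooth muscle myosin heavy chain, averaged 3.74 ± 1.23 CPM (SD, n = 3) in control and 2.23 ± 0.374 CPM (SD, n = 3) in Smad7-KO libraries (adjusted p = 0.0841 in edgeR). Rgs5, a pericyte marker, was at 3.77 ± 1.22 CPM (SD, n = 3) and 2.30 ± 0.505 CPM (SD, n = 3) in the same groups (adjusted p = 0.0851 in edgeR). Cspg4, also on the list and named after its values were seen, averaged 3.75 CPM in unstimulated control and 1.08 CPM in unstimulated Smad7-KO libraries. With TGF-β1 its means were 9.33 and 3.18 CPM. The groups did not overlap for 5 of the 10 in each Smad7-KO comparison, with 0 higher, as for 41.3% and 44.9% of all tested genes. The part of these cells in the receptor and Heyl values was not tested.

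Genes of other marker lists also differed between the genotypes. Of 9 macrophage markers, 5 were higher in unstimulated and 4 in stimulated Smad7-KO cells, where 12.1% and 5.72% of all tested genes were higher, and 7 were in each comparison with the length trend removed. Of 5 tested epicardial and mesothelial markers, 3 were lower in unstimulated and 1 in stimulated Smad7-KO cells, where 13.7% and 7.23% of all tested genes were lower. The 6 listed summed to 178 to 210 CPM in unstimulated control and 137 to 167 CPM in unstimulated Smad7-KO libraries. Of 4 tested cardiomyocyte markers, 2 were lower in unstimulated and 0 in stimulated Smad7-KO cells, against the same shares. The unstimulated groups did not overlap for 2 higher and 2 lower markers, as for 41.3% of all tested genes, and the median log2 fold change was -0.02. The 7 listed summed to 33.9 to 77.9 CPM in unstimulated control and 18.5 to 25.2 CPM in unstimulated Smad7-KO libraries. Most of the control sum was Tnnt2 (mean 45.7 CPM), named after its values were seen. Among the 10 fibroblast markers, Dcn and Lum were higher and Tcf21 and Thy1 lower in both Smad7-KO comparisons, a choice of names made after their values were seen. Of all tested genes 12.1% were higher and 13.7% lower in unstimulated, and 5.72% and 7.23% in stimulated Smad7-KO cells. Log2 fold changes in unstimulated and stimulated cells were -1.30 and -0.88 for Tcf21 and -1.55 and -1.34 for Thy1. The part of any of these cells in the values of the members was not tested.

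**Figure D5:**
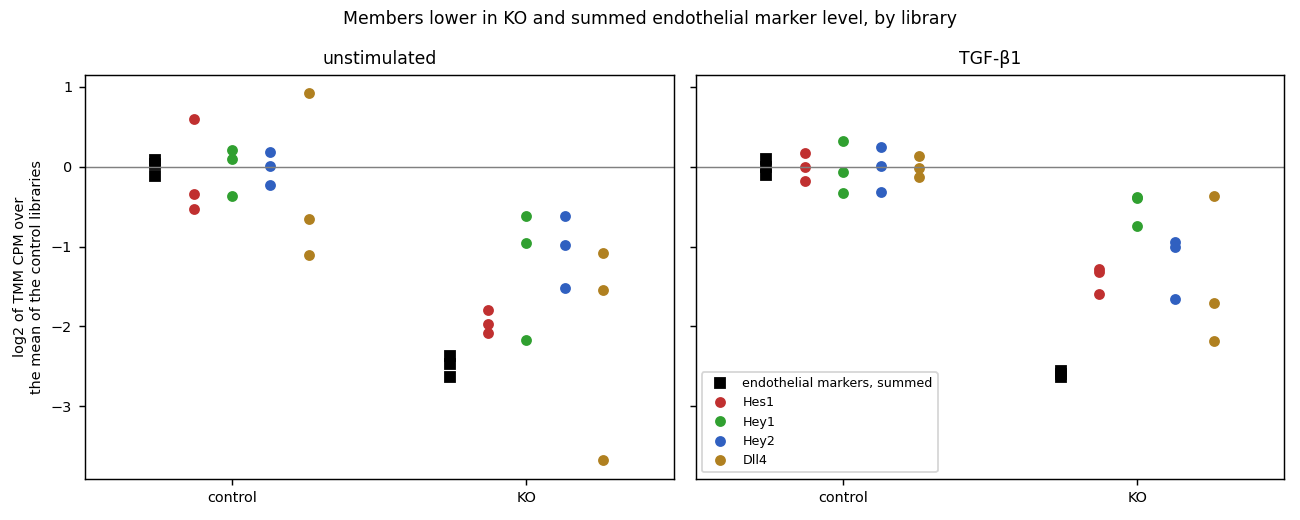
Level in each library relative to the mean of the 3 control libraries of the same stimulation, on a log2 scale, for Hes1, Hey1, Hey2 and Dll4 (circles) and the summed endothelial markers (squares). Each point is a library. In Smad7-KO libraries the summed endothelial level (55.6 to 66.9 CPM unstimulated) lay further below its control than every library of Hes1, Hey1 and Hey2 did, whereas Dll4 in unstimulated Smad7-KO library 1 (0.0495 CPM) lay further below its own.

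Of 43 other genes of the pathway, 38 were tested, and the ligands Dlk2, Dll1 and Dll3 and the targets Hes5 and Hes7 were too rarely counted. In unstimulated Smad7-KO cells 6 of the 38 were higher and 1 lower, against 12.1% and 13.7% of all tested genes, and with the length trend removed 8 were higher and 5 lower, against 14.0% and 15.0%. The 5 with the largest increase were Dtx4, a ubiquitin ligase of receptor trafficking (log2 fold change 1.07, SE 0.182, adjusted p = 0.00272 in edgeR), the receptor proteases Adam17 (0.79, adjusted p = 0.00177) and Furin (0.66, 0.0396), Mib1, which ubiquitinates ligands (0.57, 0.0393), and Lfng, a glycosyltransferase of the receptor (0.39, 0.0386). Mib1 was at 0.05 (adjusted p = 0.728 in edgeR) with the length trend removed. The median log2 fold change over the 38 was 0.12, or 0.01 with the length trend removed, and -0.02 over all tested genes.

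The lower gene, Nrarp, was outside the rule for named genes because of its low average level and is named after its values were seen. It encodes an ankyrin repeat protein that is induced by Notch and limits Notch signaling. In unstimulated cells Nrarp averaged 5.71 ± 1.30 CPM (SD, n = 3) in control and 0.241 ± 0.109 CPM (SD, n = 3) in Smad7-KO libraries, a log2 fold change of -4.54 (SE 0.433, adjusted p = 8e-05 in edgeR). Its counts were 100 to 147 in unstimulated control, 21 to 49 in TGF-β1 control, 3 to 8 in unstimulated Smad7-KO and 0 to 1 in TGF-β1 Smad7-KO libraries, so the groups did not overlap in either Smad7-KO comparison. TGF-β1 lowered it in control cells (-2.10, SE 0.349, adjusted p = 0.00263 in edgeR).

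In stimulated Smad7-KO cells 2 of the 38 were higher and 2 lower, against 5.72% and 7.23% of all tested genes, and with the length trend removed 7 were higher and 6 lower, against 12.9% and 10.3%. The higher genes were Dtx4 (0.79, adjusted p = 0.0153 in edgeR) and Adam17 (0.62, 0.00804), and the lower genes were Nrarp and the noncanonical ligand Dlk1 (-1.61, 0.0413), which was also chosen after its values were seen and was counted 6 to 11 times in stimulated Smad7-KO and 20 to 31 times in stimulated control libraries. TGF-β1 raised Notch4, the receptor best known from endothelial cells, from 5.83 ± 0.803 CPM (SD, n = 3) to 31.1 ± 1.77 CPM (SD, n = 3) in control and from 5.09 ± 0.969 CPM (SD, n = 3) to 29.1 ± 1.86 CPM (SD, n = 3) in Smad7-KO cells. Log2 fold changes of Notch4 were 2.41 (SE 0.154) and 2.51 (SE 0.155), the largest among the pathway genes averaging 1 or more in log2 CPM. In the same fit to all 12 libraries Notch1, Notch2 and Notch3 did not pass in either genotype. All 3 passed in a fit to the 6 Smad7-KO libraries alone, where Notch1 was higher (0.60) and Notch2 (-0.51) and Notch3 (-0.40) were lower with TGF-β1. In that fit 3792 of 14401 tested genes passed, against 1550 of 15150 with all 12 libraries. Notch2 was also lower in Smad7-KO cells with the length trend removed (-0.49). The stimulated cells also had higher Mfng, a glycosyltransferase (1.18 in control and 1.54 in Smad7-KO), Furin (1.07 and 0.89) and Adam10, the protease that cuts ligand-bound receptors (0.57 and 0.59), and lower Rbpj, the DNA-binding partner of the receptor (-0.59, adjusted p = 0.0147 in edgeR, and -0.64, 0.00780). TGF-β1 lowered Kat2b, a coactivator, in Smad7-KO cells (-0.50, adjusted p = 0.0259 in edgeR), and its change with TGF-β1 in control cells was -0.44 (0.0550). In each genotype TGF-β1 raised 4 and lowered 2 of the 38, where 5.04% of all tested genes were higher and 3.33% lower in control cells and 5.33% and 4.90% in Smad7-KO cells. With the length trend removed 8 were higher in each genotype and 5 lower in control and 4 in Smad7-KO cells. In that fit 7.16% of all tested genes were higher and 7.39% lower in control cells, and 8.55% and 7.74% in Smad7-KO cells. The interaction passed for 0 of them in edgeR, with 0 at an unadjusted p under 0.05 and 0 in DESeq2.

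Over the 12 libraries, correlations of log2 CPM describe which genes had the most similar pattern. They share the library scaling, the 4 conditions and each library's trend on gene length, which was not removed here, so they are given without a test. For Hes1 the closest genes, among those averaging 1 or more in log2 CPM, were Tcf21, a transcription factor of cardiac fibroblasts that is on the fibroblast marker list and was itself lower in Smad7-KO cells, Wisp2 and 6030419C18Rik (Pearson r = 0.989 each). The genes closest to Heyl were Sema7a (0.979), the cytokine Lif (0.973) and Ppp1r13l (0.972). Those closest to Hey1 were Rilpl1 (0.938), Fxyd6 (0.937) and Syn2 (0.931), and those closest to Hey2 were Fscn1 (0.938), Ramp2 (0.933), which is on the endothelial list, and Nnt (0.932). Notch1 followed Zfp646 (0.993), D030028A08Rik (0.989) and Rxra (0.989), Notch2 followed the integrin Itga4 (0.996), 2610507B11Rik (0.994) and Dmxl1 (0.994), and Notch3 followed Cdc42bpg (0.968), Arhgef17 (0.964) and Col4a6 (0.963). Jag1 was closest to Npr3 (0.988), Sorbs2 (0.972) and Crim1 (0.950), Jag2 to Mybl1 (0.958), Prr33 (0.957) and Pcdh7 (0.933), and Dll4 to Rbm18 (0.940), Siah1a (0.934) and Nme7 (0.930). Among the members themselves Hes1 and Notch2 had the strongest negative correlation (-0.90), and Hes1 and Dll4 (0.81) and Hey1 and Heyl (0.81) the strongest positive ones. Hes1 (1468 bases) and Notch2 (10506) are in the shortest and longest class of genes, and the part of the length trend in these correlations was not tested.

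Notch1 overlaps the opposite-strand genes 0610009E02Rik (8 to 23 reads per library) and Gm13568 (0 to 6), Notch3 overlaps Gm17276 (0 to 7), and Dll4 overlaps Gm14207 (0 to 6). Whether counting used strand is not given in the sources used here, so reads of these pairs cannot be told apart. Overlap is small relative to Notch1, which had 101 to 2283 reads, but not relative to Dll4, which had 1 to 21.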

How the data were processed

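RNA of cultured cells was sequenced from 12 poly(A)-selected libraries. Whole, unnormalized read counts per gene were deposited, together with FPKM values. All 233633 deposited FPKM values above 0 matched, within 0.1%, the count over gene length over the library's total, so FPKM carries no further scaling and was used for this check alone. Submitters' processing notes name CASAVA, TopHat2 2.0, Cufflinks 2.1.1 and HTSeq 0.6.1 without giving their roles, and whether strand was used is not stated. Positions are those of the deposited table (GRCm38), and overlaps were taken from GENCODE M21.

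Counts were fitted with edgeR 4.0.16 in R 4.3.3 (filterByExpr with a minimum count of 10, TMM, robust quasi-likelihood fit, conditions as the only term, Benjamini-Hochberg adjustment over 15150 genes). The 10 members, the 43 further pathway genes and the marker lists were chosen with earlier results of these data known. Named genes were all members, Smad7, 4 marker genes and, per comparison, up to 5 pathway genes with the largest absolute log2 fold change among those past the threshold with a mean log2 CPM of 1 or more. Likeness used the 3 genes with the highest Pearson correlation. Sums of markers are of TMM CPM. Alternatives were DESeq2 1.42.0, edgeR fitted to the compared libraries alone, DESeq2 size factors, library totals alone, no filter on low counts, a replicate block, removal of each library's length trend by loess (span 0.3), and leaving out each library. Leaving out both control libraries 2, and removing the length trend without unstimulated control library 2, were chosen after seeing the data. The procedures were tested on simulated data. An exact test of 3 libraries against 3 could not go below p = 0.1. Members have up to 11 annotated transcripts, which gene counts do not separate. Libraries of a condition differed from each other by more than the sampling noise, so none was counted as a repeat of another.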

Additional observations from a re-analysis of the deposited data

How the results depend on the processing

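Of the member fold changes recomputed under the alternatives, 958 kept their direction and their side of the threshold, 33 lost and 51 gained a call, and 46 turned. In 22 of 22 alternatives Hes1 (both Smad7-KO comparisons), Heyl (both TGF-β1 comparisons) and Hey1 (TGF-β1 in Smad7-KO cells) kept their calls. Counts are given below in the order Smad7-KO unstimulated, Smad7-KO with TGF-β1, TGF-β1 in control and TGF-β1 in Smad7-KO. Member counts of 4, 2, 1 and 2 became 5, 4, 4 and 4 with the length trend removed, 5, 6, 5 and 7 when unstimulated control library 2 was also left out, and 4, 4, 3 and 4 with the trend removed beside a replicate block. They became 1, 4, 1 and 7 in fits to the compared libraries alone, 4, 2, 3 and 2 in DESeq2, 2, 2, 1 and 2 with no filter, and 4, 3, 1 and 4 without both control libraries 2. Calls over all tested genes moved as well, from 3907, 1962, 1268 and 1550 of 15150 in the fit to all 12 libraries. They were 660 of 14524, 4453 of 14481, 391 of 14553 and 3792 of 14401 in fits to the compared libraries alone. DESeq2 called 5139 of 16322, 2793 of 15320, 1733 of 15821 and 1951 of 16322. With the length trend removed 4394, 3514, 2204 and 2468 of 15150 passed. Pathway counts of 7, 4, 6 and 6 became 13, 13, 13 and 12 with the length trend removed, 12, 22, 16 and 15 when that library was also left out, and 12, 12, 12 and 11 beside the block. They became 3, 15, 2 and 14 in fits to the compared libraries alone, 12, 7, 9 and 8 in DESeq2, 4, 5, 5 and 5 by library totals, and 6, 4, 7 and 11 without both control libraries 2. Of all tested genes 4390, 5530, 2795 and 3735 of 15510 passed with the trend removed and unstimulated control library 2 left out. Beside the block with the trend removed 4086, 3230, 1982 and 2253 of 15150 passed, and 3448, 1841, 1164 and 1415 by library totals. With no filter 2801, 1500, 1059 and 1263 of 25841 passed, and 3519, 2763, 1456 and 2692 of 15403 without both control libraries 2. The interaction count was 0 throughout (edgeR and DESeq2).

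With a library left out in turn, member counts went from 1 (without unstimulated control library 1 or Smad7-KO library 2) to 7 (without unstimulated control library 3) in unstimulated Smad7-KO cells, where they were 2 without unstimulated control library 2, TGF-β1 control library 3, unstimulated Smad7-KO library 1 or 3, or TGF-β1 Smad7-KO library 1 or 2. They went from 1 to 3 with TGF-β1 (1 without control or Smad7-KO library 2 or 3 of the stimulated cells) and from 1 to 2 for TGF-β1 in control (2 without unstimulated control library 2 or 3 or Smad7-KO library 2). Pathway counts went from 3 (without unstimulated control library 1, TGF-β1 control library 3, any unstimulated Smad7-KO library, or TGF-β1 Smad7-KO library 1 or 2) to 21 (without unstimulated control library 3) in unstimulated Smad7-KO cells. With TGF-β1 they went from 2 (without control library 2 or Smad7-KO library 1 or 2 of the stimulated cells) to 10 and 15 without unstimulated control libraries 3 and 2. For TGF-β1 in control they were 4 to 15, the highest without unstimulated control library 3, and in Smad7-KO cells 3 (without any unstimulated Smad7-KO library or TGF-β1 Smad7-KO library 1) to 10 (without unstimulated control library 2 or 3). Calls over all tested genes moved too. In unstimulated Smad7-KO cells they went from 1535 of 15504 without unstimulated Smad7-KO library 3 to 7979 of 15499 without unstimulated control library 3. In stimulated Smad7-KO cells they went from 883 of 15489 without TGF-β1 control library 2 to 4465 of 15510 without unstimulated control library 2. For the TGF-β1 comparisons they were 825 to 3449 in control and 985 to 2535 in Smad7-KO cells.

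Directions that turned were of values that did not pass in either fit, except Notch3. In unstimulated Smad7-KO cells Notch3 went from 0.12 to -0.20 with the length trend removed, -0.18 beside the block, -0.28 without both control libraries 2 and -0.46 (adjusted p = 0.00494 in edgeR) with the trend removed and unstimulated control library 2 left out. Leaving out single libraries moved it between -0.27 and 0.60, and between -0.21 and 0.10 with TGF-β1. For TGF-β1 in control, Dll4 went from 0.02 to -0.02 in DESeq2, 0.00 with DESeq2 size factors, -0.11 with the trend removed and -0.01 beside the block. Hes1 went there from -0.10 to 0.06, 0.07 beside the block, 0.25 without both control libraries 2, and 0.31 with the trend removed and that library left out. Single libraries left out gave -0.41 to 0.30 for Notch2, -0.61 to 0.26 for Notch3, -0.34 to 0.81 for Dll4 and -0.30 to 0.33 for Hes1, and -0.25 to 0.97 for Dll4 in Smad7-KO cells. In the interaction Jag1 (0.00) was at -0.05 by library totals and -0.01 with no filter, and Notch1 (0.07) at -0.04 with the block. Without both control libraries 2, interactions were 0.10 for Notch3, -0.32 for Dll4 and 0.11 for Hey2, and 0.18 for Notch3 and -0.31 for Dll4 with the trend removed and unstimulated control library 2 left out. Single libraries left out gave interactions of -0.72 to 0.57 for Notch1, -0.67 to 0.21 for Notch3, -0.19 to 0.12 for Jag1, -0.31 to 0.95 for Dll4 and -0.36 to 0.07 for Hey2. Causes were not tested.

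Replicate numbers were shared across conditions, but libraries with the same number did not deviate together in every pair (correlations of -0.205 to 0.524), so the numbers were not taken as pairs. With the replicate block 3, 2, 1 and 2 members were called, and Hey1 in unstimulated cells was the call lost (-1.10, adjusted p = 0.0543 in edgeR). Not every library correlated best with its own number.

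Depth limits Dll4, Jag2 and unstimulated Heyl, which had 1 to 21, 5 to 38 and 3 to 22 reads per library. Counting error alone leaves changes of such genes imprecise. The fit borrows its spread from all 12 libraries, so the variable unstimulated control libraries bear on every comparison.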
